A study of Mus musculus with 3 samples.

Results

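Promoter regions shared by both NKX2-5 ChIP libraries are stretches of the mouse genome that were enriched in each of the duplicate libraries and lay at the start of an annotated transcript. They were chosen by position and by presence in both peak lists: a peak of library S1 and a peak of library S4 had to share at least 1 bp, pairs linked through a common peak were joined, and the midpoint of the stretch covered by the pair with the highest smaller score had to lie within 1 kb of a transcript start of GENCODE M1. This rule kept 436 of 2546 shared regions (17.1%, 15.7 to 18.6), and 2110 shared regions lay elsewhere. Ranges that follow a percentage are exact 95% intervals by the method of Clopper and Pearson and cover counting error alone. The study asked where NKX2-5 sits on chromatin in hearts of E11.5 embryos of Parkes mice. NKX2-5 was immunoprecipitated in 2 libraries, named S1 and S4. The Input library (1 sample) was not analysed here. Both ChIP libraries carry the same genotype, stage and tissue labels with no treatment, and whether they came from separate pools of hearts is not stated, so the spread between them may be technical.

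NKX2-5, a homeodomain protein needed for heart formation, binds short DNA sites with an AAGTG core and works with GATA, T-box, HAND and MEF2 factors on genes of heart muscle. A promoter is the DNA around a transcript start where RNA polymerase is loaded. Many mammalian promoters are rich in CpG and GC, and some lie between a pair of genes transcribed away from each other, here called a divergent pair. MEIS proteins are homeodomain factors with a TGACA core.

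The sequences that follow show how the longer NKX2-5 core TNAAGTG, or GTGNTGACA, which joins a GTG to the MEIS core, lay in the stretch covered by both peaks of named regions. They are read from the mm9 genome on the strand of the match, 5′ to 3′, and the capitals mark the match nearest to the midpoint. These genes are shown because they include the strongest regions of the set and genes of heart muscle and heart patterning.

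Gcc2, 90 bp downstream of its start, chr10:57736261-57736307, plus strand: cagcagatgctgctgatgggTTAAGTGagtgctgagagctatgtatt
Adprhl1, 857 bp upstream, chr8:13243919-13243965, minus strand: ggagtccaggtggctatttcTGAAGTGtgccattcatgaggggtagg
Actc1, 1075 bp downstream, chr2:113877525-113877571, minus strand: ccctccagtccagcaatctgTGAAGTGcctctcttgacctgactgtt
Cacna1c, 778 bp upstream, chr6:119147004-119147050, minus strand: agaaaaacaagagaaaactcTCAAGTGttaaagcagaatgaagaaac
Nppa, 238 bp upstream, chr4:147374570-147374616, plus strand: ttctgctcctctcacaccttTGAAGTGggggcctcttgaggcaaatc
Smyd1, 235 bp upstream, chr6:71212487-71212533, minus strand: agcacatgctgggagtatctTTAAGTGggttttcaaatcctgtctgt
Meis2, 51 bp downstream, chr2:115867708-115867754, plus strand: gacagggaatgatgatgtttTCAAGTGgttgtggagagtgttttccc
Hand2, 373 bp upstream, chr8:59799384-59799430, minus strand: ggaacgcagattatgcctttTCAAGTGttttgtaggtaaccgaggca
Tnnt1, 137 bp upstream, chr7:4468097-4468145, plus strand: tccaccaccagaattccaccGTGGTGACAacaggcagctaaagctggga
Kcnh2, 1129 bp upstream, chr5:23858527-23858575, plus strand: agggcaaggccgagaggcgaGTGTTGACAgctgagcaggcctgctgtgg

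The Gcc2 and Meis2 matches lay within 100 bp of the start, and the Nppa, Smyd1 and Tnnt1 matches lay between 100 bp and 250 bp upstream of it. The Actc1 match lay inside the gene. All distances are to the nearest annotated transcript start, which can be internal to a gene. The Adprhl1 and Smyd1 matches lay upstream of that start but within peaks wholly inside the annotated gene. The Gcc2 and Meis2 peaks spanned their nearest start and also lay wholly inside the gene, so those starts are internal too. A match is a description of the letters and not a measured contact, because the lists give no summits.

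Each peak carries a score, which is the negative log10 p of the peak caller multiplied by 10. Lists held 4418 peaks in S1 and 5441 in S4, with scores from 140 to 3100, so a region absent from a list can lie under that minimum. The number of reads is unknown, and scores are not scaled between libraries. Over the 436 promoter regions the median score was 243 in S1 (lower to upper quartile, 177 to 349) and 296 in S4 (194 to 489). The other shared regions had medians of 292 in S1 (197 to 467) and 323 in S4 (222 to 533). Promoter regions were thus lower in score than other shared regions in both libraries, though the quartiles overlapped, and there was no test because the 2 libraries are of 1 condition.

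Promoter regions were few among the highest scores. Ranked by the smaller score of the pair, 1 of the 20 highest shared regions and 9 of the 100 highest (9%) were at a promoter. The score in S4 exceeded that in S1 at 282 of 436 promoter regions (64.7%, 60.0 to 69.2) and at 1261 of 2110 other shared regions (59.8%, 57.6 to 61.9). Expressed as log2 of S4 over S1, the median was 0.29 at promoters and 0.14 elsewhere. Scores lay within 2-fold of each other at 344 of 436 promoter regions (78.9%) and at 1838 of 2110 other regions (87.1%). Across regions, Spearman's rho between S1 and S4 scores was 0.496 at promoters (n = 436) and 0.663 elsewhere (n = 2110), as a description of regions that share the same 2 libraries.

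**Figure D1:**
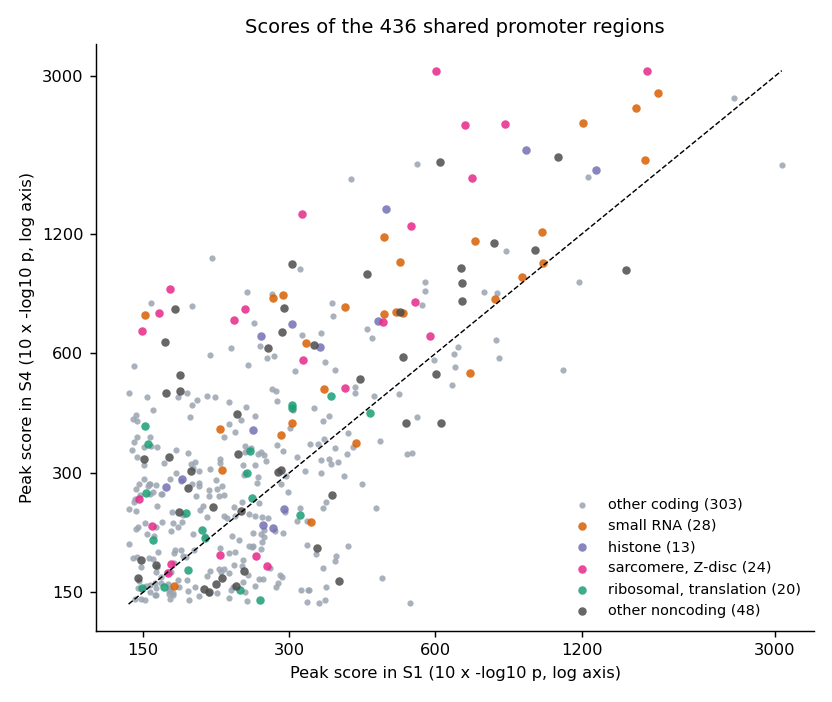
Peak score in S1 (x axis) against peak score in S4 (y axis), both 10 times the negative log10 p on log axes, 1 point per shared promoter region, colored by gene class, with a dashed line of equal scores. Sarcomere, histone and small RNA regions sit mostly above the line, and 282 of the 436 regions have the higher score in S4.

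Peaks at promoters were of similar width in S1 and wider in S4 than other shared peaks. The median width was 710 bp in S1 and 936 bp in S4 at promoters, against 682 bp and 847 bp elsewhere. The stretch covered by both peaks had a median of 639 bp at promoters and 625 bp elsewhere. It ranged at promoters from 6 bp at Ptma to 2399 bp at Actc1. S4 peaks wider than 2 kb were found at 24 of 436 promoter regions (5.50%, 3.56 to 8.08) and at 33 of 2110 other regions (1.56%, 1.08 to 2.19). Regions that merged more than 2 peaks made up 22 of 436 promoter regions (5.05%) and 33 of 2110 elsewhere (1.56%).

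The midpoints clustered at the start. The median distance to the nearest transcript start was 140 bp, 176 of 436 midpoints (40.4%) lay within 100 bp and 370 (84.9%) within 500 bp. Midpoints lay upstream of the nearest start at 236 regions (54.1%, 49.3 to 58.9) and downstream at 198 (45.4%, 40.7 to 50.2). Some upstream midpoints still lay inside the annotated gene, as at Adprhl1 and Smyd1, where the nearest start is internal. An annotated exon held the midpoint at 121 regions and an intron at 66, and at 13 it lay past the end of a short gene. The stretch covered by both peaks held a start at 314 of 436 regions (67.6 to 76.2% by the interval). At the limit of the rule, the furthest members were Inpp4b, 987 bp downstream (656 in S1, 598 in S4), and Fabp12, 971 bp upstream (246 in S1, 142 in S4). The nearest regions left out were SNORA17, 1006 bp upstream (731 and 413), and Ltbp2, 1021 bp upstream (687 and 562).

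**Figure D2:**
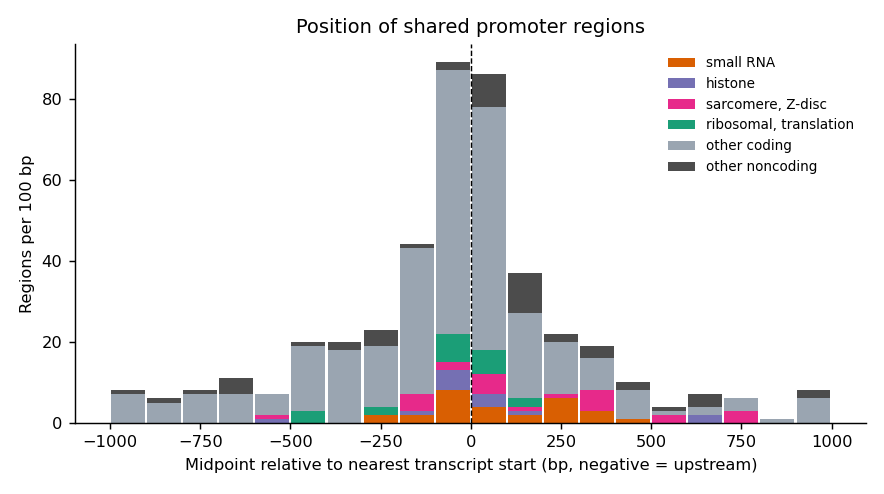
Number of shared promoter regions per 100 bp (y axis) by the position of the midpoint relative to the nearest transcript start in bp (x axis, negative is upstream), stacked by gene class, with a dashed line at the start. The bars beside the start are the tallest, and 176 of 436 midpoints lie within 100 bp of it.

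Protein-coding genes accounted for most regions. A protein-coding start lay within 1 kb of the midpoint at 379 of 436 regions (86.9%, 83.4 to 89.9) and was the nearest start at 359. The nearest start belonged to a lincRNA at 22 regions, to a small nuclear RNA at 17, to a processed transcript at 16, to a small nucleolar RNA at 9, to a pseudogene at 6, to a microRNA at 4, to a miscellaneous RNA at 2 and to an immunoglobulin V gene at 1. Only 1 gene had a start in reach at 329 regions, 99 regions had 2 genes in reach and 8 had more. All told 429 of 22380 protein-coding genes had a shared promoter region, which is 1.92% of them.

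The share of coding genes was lower at the top of the ranking. Among the 109 regions with the highest smaller scores, from 2468 down to 304, a coding gene was nearest at 74 (67.9%, 58.3 to 76.5). In the 109 lowest, from 160 down to 140, it was nearest at 99 (90.8%, 83.8 to 95.5). The highest-ranked 20 regions included those at Adprhl1, Gcc2, U4, Actc1, U11, U5, Hist1h1d, Popdc2, U1, Mir351, U6, AC120136.1, Gm11476, Gm17140, Hist1h1c, U3, Cacna1c, Myl4 and Gapdh, and 7 of 20 were at small RNA genes.

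The region of Adprhl1, which encodes an ADP-ribosylhydrolase-like protein of heart muscle, had the highest smaller score of the set. It scored 2468 in S1 and 2643 in S4, lay 606 bp upstream of the nearest transcript start, and was 682 bp wide in S1 and 693 bp in S4. Both peaks lay wholly inside the annotated gene, with 3.68% of it in the S1 peak and 3.74% in the S4 peak. That start is therefore an internal one. Gcc2, a golgin of the trans-Golgi, scored 3100 in S1, the ceiling of the list, and 1789.7 in S4, with the midpoint 102 bp downstream of the start and in an exon. The Gcc2 peaks, also wholly inside the annotated gene, were narrow, with 448 bp in S1 and 551 bp in S4. The Adprhl1 peak was near the promoter median of 710 bp in S1 and under the lower quartile of 740 bp in S4. Popdc2, a cyclic AMP-binding membrane protein of heart muscle, had its midpoint 6 bp downstream of the start. It scored 1237 in S1 and 1669 in S4. Cacna1c, the pore subunit of the cardiac L-type calcium channel, scored 838 in S1 and 1089.6 in S4 with the midpoint 429 bp upstream. These regions scored higher than the upper quartile of promoter regions in both libraries.

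Small RNA genes had the highest median scores of the 6 gene classes. Small nuclear RNAs are the RNA parts of the spliceosome (U1, U2, U4, U5 and U6 in the major form, U11, U12 and U4atac in the minor form) or of histone mRNA processing (U7), and small nucleolar RNAs such as U3 guide the processing or modification of ribosomal RNA. At 28 regions the nearest start was of such a gene or of a miscellaneous RNA. Their median score was 469 in S1 and 775 in S4, against 228 and 266 at the 303 regions of the remaining coding genes, and 24 of 28 scored higher in S4. In all, 39 regions had a small RNA start within 1 kb, of which 14 also had a coding start.

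Grouped by annotated name alone, the genes in reach comprised 5 of U2, 4 of U1, 3 of U3, 3 of U5, 2 of U4 and 2 of Y_RNA. There was 1 each of U6, U7, U11, U12 and U4atac, besides 18 other small nucleolar RNAs, AC120136.1 and AC158898.1. A copy under another name is not counted with its family. By annotated type they included 20 of 1423 small nuclear RNA genes (1.41%) and 21 of 1552 small nucleolar RNA genes (1.35%), shares below the 1.92% of coding genes. U4 was represented by a pair of genes under 1 region on chromosome 5, which scored 1727 in S1 and 2717 in S4. U11, on chromosome 4, scored 1619 in S1 and 1843 in S4. The highest U5 region, on chromosome 9, scored 1549.8 and 2493. The 4 U1 regions ranged from 469.7 to 1207 in S1 and from 535 to 2293 in S4. The 5 U2 regions ranged from 228 to 515 in S1 and from 374 to 761 in S4. These genes have many near-identical annotated copies, for instance 206 of U1 and 936 of U6, so reads of 1 copy may have been placed at another, and how the aligner treated reads with several positions is not stated.

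Genes of this kind that make functional RNA carry a conserved proximal element just upstream of the start. The 40 bases from 75 to 36 bases before the start are shown for genes with a shared promoter region, on the strand of the gene, because similar letters recurred among them, and the capitals mark the first match to ACCNT where there was one.

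U4, chr5:115940188-115940227, plus strand: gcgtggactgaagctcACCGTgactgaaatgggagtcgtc
U5, chr9:65044530-65044569, minus strand: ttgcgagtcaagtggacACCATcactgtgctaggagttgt
U1, chr11:87236294-87236333, plus strand: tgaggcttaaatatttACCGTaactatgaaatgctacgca
U1, chr12:55797694-55797733, plus strand: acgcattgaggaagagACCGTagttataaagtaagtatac
U1, chr3:96132273-96132312, plus strand: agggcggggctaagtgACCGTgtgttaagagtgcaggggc
U2, chr11:101519477-101519516, plus strand: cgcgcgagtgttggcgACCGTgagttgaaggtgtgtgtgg
U12, chr15:82979999-82980038, plus strand: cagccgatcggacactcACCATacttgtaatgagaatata
U2, chr12:60141247-60141286, plus strand: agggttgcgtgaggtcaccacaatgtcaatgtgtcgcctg

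The last of these holds no match, nor do 4 further genes that are not shown. ACCNT, searched on the gene strand only and chosen after the sequences were seen, was present in 12 of the 17 U1, U2, U4, U5, U7, U11 and U12 genes with a shared promoter region (70.6%, 44.0 to 89.7). It was present in 50 of 420 other annotated genes of these names (11.9%, 8.97 to 15.4). Most annotated copies of these genes therefore lacked the letters in that window, and those in a shared promoter region mostly held them, as a description of letters chosen on these genes.

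Histone genes also had a higher median score than the remaining coding genes in both libraries. The 13 regions at protein-coding histone genes had a median of 293 in S1 and 623 in S4, and 10 of 13 were higher in S4. Of 79 histone genes in the annotation, 16 had a shared promoter region (20.3%), beside 1.92% of all coding genes. Hist1h1d, a linker histone that packs nucleosomes, scored 1286 in S1 and 1746 in S4. Hist1h1c scored 921 and 1951, and its S4 peak of 2298 bp covered the whole 1560 bp gene. The region between the divergent genes Hist1h2ae and Hist1h2bg, core histones H2A and H2B, scored 265 in S1 and 222 in S4. A cluster of 6 shared promoter regions, each within 100 kb of the next, lay at the histone genes of chromosome 13 from Hist1h4h to Hist1h2be, with scores from 167 to 1286 in S1 and from 218 to 1746 in S4. A cluster of 4 lay on chromosome 3 from Hist2h3c2 to a U1 gene. Hist2h3c2 is annotated as a pseudogene, so its region (179 in S1, 482 in S4) is counted neither among the 13 regions nor among the 16 genes. A cluster of 4 on chromosome 11 held 2 U1 and 2 U3 genes.

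Genes of the sarcomere and Z-disc, the contractile unit of muscle and its anchor, had the largest share of members with a shared promoter region among the 19 lists examined. The lists were chosen with earlier results of these data known, so their order describes these lists only. Of 63 listed genes found in the annotation, 22 had one (34.9%, 23.3 to 48.0), beside 1.92% of all coding genes. They were Actc1, Myl4, Myl2, Myh7, Tpm1, Mybpc3, Mylk3, Csrp3, Lmod2, Hspb7, Myom2, Ankrd1, Tnnc1, Ldb3, Tmod1, Pdlim7, Ttn, Cacybp, Tnni1, Tnnt1, Myh6 and Smpx. Cacybp, which takes part in ubiquitin-dependent turnover, is no sarcomere component and was in the list all the same. A promoter peak in a single list or in both without overlap was found for 12 others, among them Myl7 (381 in S4), Tnni3 (323 in S4) and Myl3 (171 in S1 and 563 in S4, not overlapping).

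Most thin filament genes of the set scored higher in S4. Actc1, the cardiac alpha-actin of the embryonic heart, scored 1639.7 in S1 and 3100 in S4, and its S4 peak of 6328 bp covered 97.4% of the gene against 40.9% in S1. Tpm1, the alpha-tropomyosin that lies along actin, scored 603 in S1 and 3100 in S4, with widths of 1367 bp and 6816 bp. Tnnc1, the calcium-binding troponin of slow and cardiac muscle, scored 243 in S1 and 778 in S4. Actc1 and Tnnc1 had 2 shared promoter regions each, and the scores are those of a single region. Tnni1, the slow skeletal troponin I that the embryonic heart uses, scored 161 in S1 and 758 in S4. Its S1 peak of 684 bp and S4 peak of 1440 bp shared only 36 bp, so these scores cover largely different stretches. Tnnt1, the slow skeletal troponin T, differed less, with 157 in S1 and 219.8 in S4, and Tmod1, which caps the pointed end of actin, was higher in S1, with 216 against 186.

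Thick filament genes followed the same order. Myh7, the slow beta-myosin heavy chain, scored 689 in S1 and 2266 in S4. Myh6, the alpha-myosin heavy chain, scored 149 in S1 and 684 in S4. Myl4, the atrial essential light chain, scored 835 and 2269, and Myl2, the ventricular regulatory light chain, scored 714 and 1659. Mybpc3, the myosin-binding protein C of heart, differed least of these, with 583 in S1 and 665 in S4. Myh6, Mir208b and Myh7 lay in 1 cluster on chromosome 14. Mir208b, a microRNA in an intron of Myh7, scored 289 in S1 and 680.2 in S4.

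Titin and the Z-disc genes spread more widely. Ttn, the giant spring of the sarcomere, scored 171 in S1 and 872 in S4, a log2 ratio of 2.35. Ldb3 scored 231 and 730.1, and Csrp3 scored 534 and 1259, both Z-disc proteins. Ankrd1, a stress-responsive partner of titin, scored 319 and 1349.8. Pdlim7 went the other way, with 270 in S1 and 175 in S4. Over the 24 regions of this class, 20 scored higher in S4 (83.3%, 62.6 to 95.3), the median log2 ratio was 0.89 against 0.14 at the remaining coding genes, and S4 peaks over 2 kb were seen at 9 of 24 against 8 of 303. Genes outside the list could also be far higher in S4. Nppb, a natriuretic peptide, scored 401 in S1 and 1653 in S4, and Actb, the cytoplasmic beta-actin, scored 549 and 1806 with widths of 958 bp and 3847 bp.

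**Figure D3:**
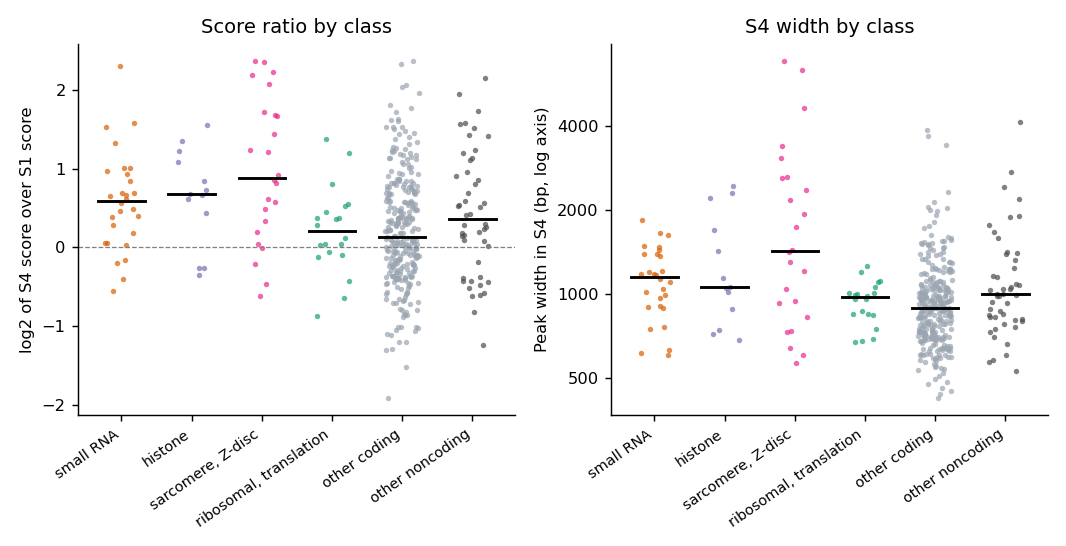
Left, log2 of the S4 score over the S1 score (y axis), and right, the width of the S4 peak in bp on a log axis (y axis), for each shared promoter region in 6 gene classes (x axis), with a bar at each class median and a dashed line at equal scores. The median ratio is highest in the sarcomere class (0.89) and lowest in the class of other coding genes (0.14), and the widest S4 peak, at Tpm1, is 6816 bp.

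Regulators of heart development had a smaller share of members in the set than the sarcomere list. Of 74 listed cardiac transcription factors and cofactors, 8 had a shared promoter region (10.8%, 4.78 to 20.2), beside 1.92% of all coding genes. Smyd1, a muscle-restricted methyltransferase, scored 549 in S1 and 415 in S4. Meis2 and Meis1, homeodomain partners with a TGACA core, scored 378 in S1 and 319.7 in S4, and 269 and 584, in that order. Tbx20, a T-box factor of the chambers and valves, scored 259 in S1 and 294 in S4. Tead1, the DNA-binding partner of the Hippo effectors, scored 225 and 452, and Myocd, the cardiac coactivator of SRF, scored 225 and 188. Hand2, a bHLH factor of the right ventricle, scored 145 in S1 and 421 in S4. Id3, a bHLH inhibitor, scored 147 and 160.2. Smyd1, Meis2 and Myocd were higher in S1, and the other 5 in S4. Meis2 had 2 shared promoter regions, and its scores and direction here are those of a single region.

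Some core regulators had a promoter peak in 1 list and were left out by the rule. Gata4 had peaks in S4 at 669 and 167, Gata5 at 150.4, Tbx5 at 141 and Nkx2-5 itself at 148, each near the minimum of the list except the first. Tbx3 and Mef2a had one in S1, at 207 and 220.0. In all, 5 listed regulators had promoter peaks in S1 alone and 10 in S4 alone, and Id1 had peaks in both lists that did not overlap.

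Channels, calcium handling and conduction genes had 5 of 62 members in the set (8.06%, 2.67 to 17.8), beside 1.92% of all coding genes. Besides Popdc2 and Cacna1c they included Trdn, which anchors calsequestrin at the calcium release unit (247 in S1, 342 in S4), and Kcnh2, the rapid delayed rectifier channel (156 and 351). Signaling genes had 5 of 112 (4.46%, 1.47 to 10.1), an interval that holds the 1.92% of all coding genes, and their members are given as values only. Nppa, the atrial natriuretic peptide, scored 367 in S1 and 806 in S4 and lay in 1 cluster with Nppb and Gm13054 on chromosome 4. Ctgf and Cyr61, matricellular targets of the Hippo pathway, scored 279 and 591, and 316 and 245. Lrp6, a Wnt co-receptor, scored 242 and 296.

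Genes of protein synthesis and RNA processing were also present. Of 82 cytosolic ribosomal protein genes, 13 had a shared promoter region (15.9%, 8.72 to 25.6), beside 1.92% of all coding genes, as for each list that follows, with medians of 201 in S1 and 238 in S4. Rps9 was the highest, with 366 in S1 and 468 in S4, and Rps18 the lowest by smaller score, with 262 and 143. The Rps18 start lay 960 bp from the midpoint of its region, and the nearest gene there was B3galt4. Translation factors had 7 of 66 (10.6%), led by Eif3b, a scaffold subunit of initiation factor eIF3, at 440.4 and 424. Their medians were 238 in S1 and 267 in S4. Splicing and ribonucleoprotein genes had 9 of 66 (13.6%), led by Srsf3, an SR splicing factor, at 300.5 and 388. Medians of that list were 254 in S1 and 264 in S4. A list of cytoskeleton, chaperone, translation and other genes that are abundantly transcribed in most cells had 10 of 43 (23.3%, 11.8 to 38.6), with medians of 225 in S1 and 579 in S4. Gapdh, the glycolytic enzyme, scored 803 and 852, and Malat1, a nuclear long noncoding RNA, scored 677 and 986. Actg1, the cytoplasmic gamma-actin, scored 189 in S1 and 792 in S4. RNA was not measured in these libraries, so the part of transcript level in these scores was not tested.

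Other lists stayed near the share of all coding genes. Zinc-finger genes had 14 of 446 (3.14%, 1.73 to 5.21), chromatin regulators 3 of 108 (2.78%), proteasome and ubiquitin genes 6 of 221 (2.71%), respiratory chain and ATP synthase genes 2 of 93 (2.15%), and cell cycle and replication genes 2 of 124 (1.61%). The last 2 were Plk2, a polo-like kinase (144 in S1, 559 in S4), and Cdk5rap1, which matched the list by its name and modifies tRNA. Collagens had 0 of 44, HOX genes 0 of 39, epicardial, mesenchymal and smooth muscle markers 0 of 23, endothelial and endocardial markers 0 of 20 and blood markers 0 of 15. A count of 0 says that no member passed the minimum score of 140 in both lists, and the intervals reached up to 8.04% for collagens and 21.8% for blood markers. Expression markers of the tissue itself cannot be read from peak lists, so the heart label was not checked by expression.

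**Figure D4:**
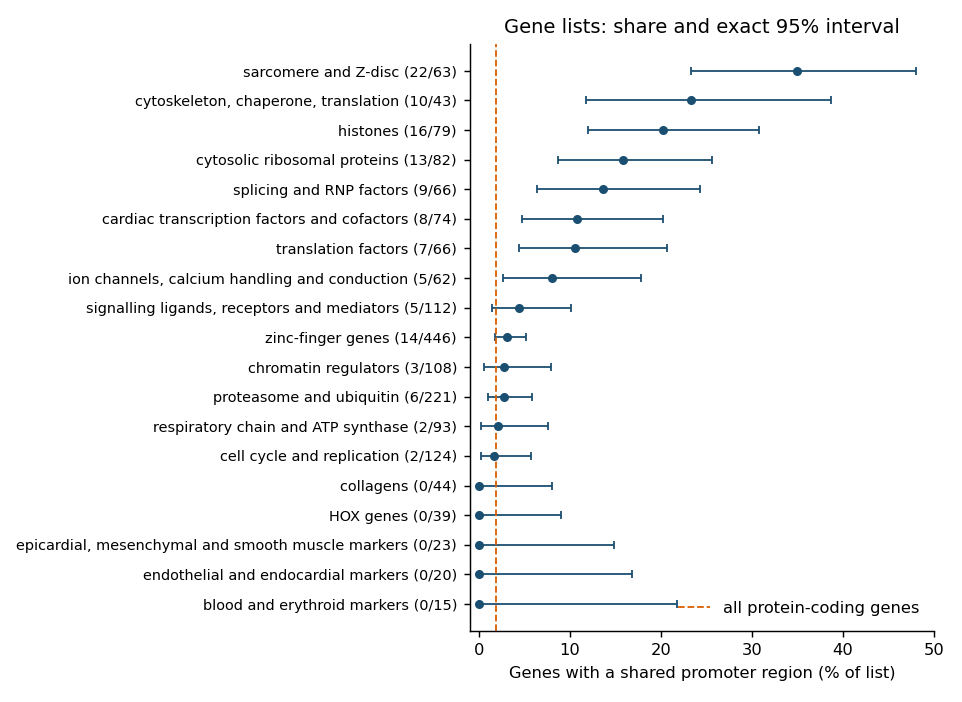
Percentage of each gene list with a shared promoter region (x axis) for 19 lists (y axis, with counts), bars showing exact 95% intervals for counting error only, and a dashed line at the share of all protein-coding genes. Sarcomere and Z-disc genes lie highest at 34.9%, and 5 lists have no member.

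Divergent pairs took 73 of the 436 regions (16.7%, 13.4 to 20.6). A divergent pair means starts on opposite strands, pointing away from each other and at most 1 kb apart (or overlapping by up to 100 bp), both within 1 kb of the midpoint. Both genes were coding at 45 regions, 1 was coding at 27 and neither at 1. Shares per gene leave out the condition on the midpoint, so they cover more pairs than those of the 73 regions. By this wider count 14.3% of all 22380 coding genes were in a pair with any gene. Among the 429 coding genes with a shared promoter region 133 were (31.0%). For pairs of coding genes the shares were 10.5% and 98 of 429 (22.8%). A single region can count both genes of a pair, which raises the share per gene.

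Regions at coding pairs had lower scores in S1 and S4 than the set as a whole, with medians of 225 and 259, and their median log2 ratio was 0.05. The gap between the starts had a median of 136 bp. The midpoint fell between both starts at 18 of 45, and the stretch covered by both peaks held both starts at 16 of 45. The highest-ranked coding pairs were Tst and Mpst, sulfurtransferases of cyanide and cysteine metabolism (448 in S1, 470 in S4), Rad51ap1 and D6Wsu163e (344 and 356), 4930442H23Rik and Dapk3, a kinase (349 and 323), Znfx1 and 1500012F01Rik (292 and 843), and Ddx5, an RNA helicase, and Ccdc45 (283 and 353). Among these, scores of both libraries lay close together except at Znfx1, where S4 was higher.

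The bases between the starts of 3 coding pairs, chosen after their sequences were seen, are shown from minus-strand gene to plus-strand gene on the plus strand, because they show how little sequence separates such genes, and capitals mark CCAAT or GGGCGG on either strand.

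Ddx5 and Ccdc45, chr11:106650500-106650565: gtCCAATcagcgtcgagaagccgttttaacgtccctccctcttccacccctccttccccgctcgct
Srsf7 and Ttc39d, chr17:80606630-80606799: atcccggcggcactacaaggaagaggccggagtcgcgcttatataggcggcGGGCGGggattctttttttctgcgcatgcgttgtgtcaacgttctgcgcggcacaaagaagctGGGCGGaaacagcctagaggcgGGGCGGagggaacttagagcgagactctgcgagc
Hist1h2ae and Hist1h2bg, chr13:23663090-23663264: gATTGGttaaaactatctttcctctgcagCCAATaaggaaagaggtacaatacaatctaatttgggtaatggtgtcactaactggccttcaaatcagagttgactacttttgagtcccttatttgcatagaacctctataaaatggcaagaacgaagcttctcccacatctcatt

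CCAAT, the site of NF-Y, occurred once between Ddx5 and Ccdc45 and on both strands between the histone genes. GGGCGG, the site of SP and KLF factors, occurred 3 times between Srsf7, an SR splicing factor, and Ttc39d, whose region scored 254 in S1 and 313 in S4. The first and second of these stretches had a GC content of 60.6% each, and the histone stretch 38.3%.

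Motif letters differed between promoter regions and the other shared regions. In windows of 201 bp around the midpoint, on both strands, TNAAGTG or GTGNTGACA occurred in 84 of 436 promoter windows (19.3%, 15.7 to 23.3), in 911 of 2110 other windows (43.2%, 41.0 to 45.3) and in 1658 of 22367 windows of the same length around all protein-coding starts (7.41%, 7.07 to 7.76). TNAAGTG contains AAGTG, and GTGNTGACA contains TGACA, so these counts overlap. AAGTG alone was in 44.0%, 68.1% and 31.7% of these windows, and TGACA in 36.7%, 70.3% and 29.1%. Promoter regions as a whole thus held these letters more often than coding starts at large and less often than the other shared regions. Windows at coding starts are centered on the start, and many promoter windows are not. For midpoints up to 100 bp from the start (n = 176), AAGTG was in 40.9% of windows. TGACA was in 26.7% and GTGNTGACA in 0.568% of them, against 29.1% and 0.952% at all coding starts. For these 2 the order over coding starts was thus not seen near the start. GGGCGG showed the opposite order between the shared sets, with 20.9% at promoters, 4.03% elsewhere and 8952 of 22367 windows at all coding starts, and CCAAT was in 22.9%, 19.6% and 27.4%.

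Base composition moved with these shares. Median GC content was 54.7% in promoter windows, 48.8% in other shared windows and 58.7% around all coding starts, and the median ratio of observed to expected CpG was 0.637, 0.203 and 0.610. The part of base composition in the motif shares was not tested. The share with TNAAGTG or GTGNTGACA was 14.8% for midpoints up to 100 bp from the start (n = 176), 19.1% for those beyond that and up to 500 bp (n = 194) and 31.8% for those further away (n = 66), while median GC content fell from 58.5% to 53.2% and 51.2%. It was 27.5% in the 109 regions with the highest smaller scores and 14.7% in the 109 with the lowest. By class it was 25% at small RNA genes (7 of 28), 20.8% at sarcomere genes (5 of 24) and 20.8% at remaining coding genes (63 of 303). It was 10% at ribosomal protein and translation factor genes (2 of 20) and 0 of 13 at histone genes, with wide intervals for the small classes. At the small RNA gene AC120136.1 the match lay 29 bp downstream of the start, inside the 191 bp gene. Windows of a U2 gene on chromosome 11 and another on chromosome 12 also held a match. Both of these U2 genes are 191 bp long, as is AC120136.1. The small RNA share may therefore count the same gene sequence more than once, which was not tested.

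**Figure D5:**
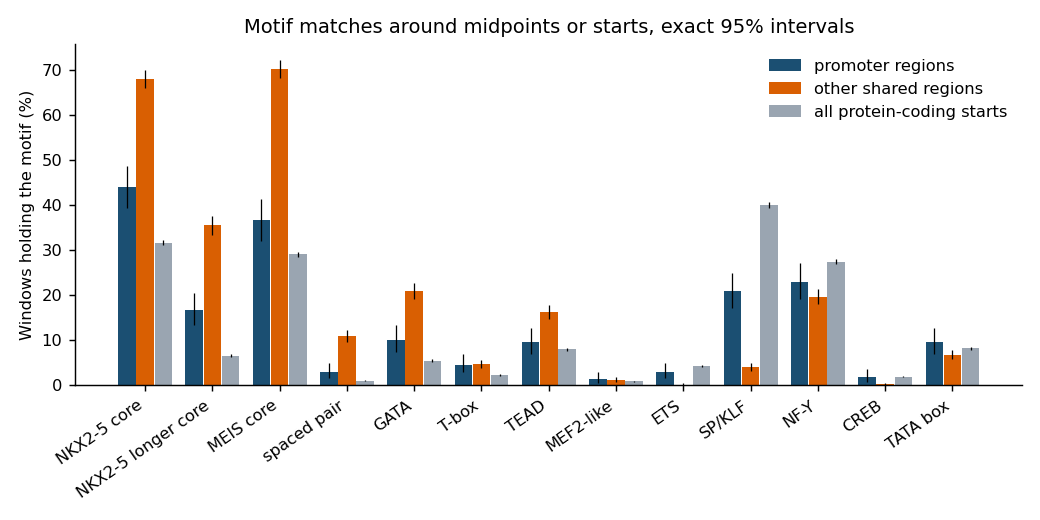
Percentage of windows that hold each of 13 motifs on either strand (y axis) in promoter regions, other shared regions and windows around all protein-coding starts (colors), with exact 95% intervals for counting error only. The NKX2-5 and MEIS cores are most frequent in the other shared regions, and GGGCGG (SP/KLF) at all coding starts.

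Width moved with score between libraries. At all 77 regions whose S4 score was over 2-fold the S1 score, the S4 peak was the wider one, beside 350 of all 436 regions (80.3%). The highest log2 ratios were at Ppp1r3c, a regulatory subunit of glycogen-bound phosphatase (155 in S1, 803 in S4, log2 ratio 2.37), Tpm1 (2.36) and Ttn (2.35). Their widths were 612 bp and 1724 bp, 1367 bp and 6816 bp, and 588 bp and 1411 bp in S1 and S4. The lowest ratios were at Atf4, a stress-response bZIP factor (532 in S1, 141 in S4, log2 ratio -1.91), Tnpo2, a nuclear import receptor (466 and 163, -1.52), and 2700049A03Rik (355 and 143, -1.31). At these 3 regions the S1 peak was the wider one, with 1223 bp against 654 bp at Atf4, and among all 15 regions whose S1 score was over 2-fold the S4 score it was the wider one at 10, beside 86 of all 436. With no read numbers and no scaling between lists, a library's depth and a region's occupancy cannot be told apart in these ratios.

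Among regions whose nearest gene makes a microRNA, Mir351 on chromosome X was highest, with 1075 in S1 and 1883 in S4. Its mature RNA and that of Mir208b, the heart microRNA named above, are given from RefSeq on build GRCm38.p6, with the seed, bases 2 to 8, in capitals.

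mmu-miR-351-5p: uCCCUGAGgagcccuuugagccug
mmu-miR-208b-3p: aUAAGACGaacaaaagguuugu

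The seeds of both differ, and Mir351 is a member of a larger cluster on the X chromosome while Mir208b lies within Myh7. Chromosome X held 5 promoter regions among 16 shared regions, and chromosome 11, with 48 of 166, held the most of all chromosomes.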

How the data were processed

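Hearts of E11.5 mouse embryos were immunoprecipitated with an antibody against NKX2-5 (N-19). The study used a Genome Analyzer IIx, placed reads on mm9 with BOWTIE and called peaks with MACS 1.4 by its methods. The submitters' processing notes also name CASAVA 1.4. Settings, and use of Input as control, are not given in the sources used here. The score deposited by the authors in each list is 10 times the negative log10 p-value of a peak in its own library, as read from the values, and lists were called separately and not pooled. Start and end are the other deposited columns used, counted here from 1. No peak reached past a chromosome end of the reference used (NCBIM37, mm9).

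Overlaps, transcript starts of GENCODE M1, motif matches and shares were computed with Python 3.11.15, numpy 2.4.6, scipy 1.17.1, pysam 0.24.0 and matplotlib. Intervals of shares follow Clopper and Pearson (confidence level 0.95). The depth is unknown, so no error of a single score can be stated. With 2 libraries of 1 condition no test was made. The members and gene lists were chosen with earlier results of these data known. Merging, promoter assignment and motif search were tested on simulated data and recovered what had been planted. Named regions are the 20 with the highest smaller score, the 5 highest coding pairs, up to 12 members per list, the 3 highest and lowest score ratios, those nearest the limit of 1 kb, the 3 widest shared stretches, and up to 10 regions at noncoding genes, by smaller score. Some regions that this rule names are not reported here. All members of the sarcomere list are named, beyond that rule. Myopn, Rmrp, Rpph1 and Rn7sk were not found under these names in the annotation. The sequences shown are a choice among the matches of these genes, and the classes of genes, the peaks present in 1 list, the widths beside score ratios and the search for ACCNT were added after the values were seen.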

Additional observations from a re-analysis of the deposited data

How the results depend on the processing

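With a score minimum of 200 in each list there were 225 shared promoter regions and 206 protein-coding genes. The share with a protein-coding start was then 81.3%, the median score 319 in S1 and 438 in S4, and the share of windows with TNAAGTG or GTGNTGACA 24.9%. Requiring each peak to be covered by 50% or more gave a median score of 276 in S4 and a median log2 ratio of 0.14. Counting starts of protein-coding genes only, the share with a protein-coding start was 100% by construction and the share at a divergent pair was 11.9%, and with both genes protein coding it was 10.3%. The motif share was 5.50% within 25 bp on each side of the midpoint and 39.4% over the whole stretch covered by both peaks, against 12.6% and 66.2% at the other shared regions. Leaving out 1 library and taking all promoter peaks of the other gave 940 to 1235 regions, 947 to 1255 protein-coding genes, a share with a coding start of 90.3% to 91.0%, a share at a divergent pair of 16.9% to 17.2%, a motif share of 15.3% to 17.1%, and a median score of 189 (S1 kept) or 208 (S4 kept). The log2 ratio, and the score of the library left out, have no such value. The other 42 values recomputed moved by less than the interval or tolerance of the value reported. Stricter rules admit fewer peaks by construction, and other causes were not tested. No paired analysis was possible because the result comes from no test and there is 1 condition. The unknown depth limits any comparison of scores between S1 and S4.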
